A study of Homo sapiens with 9 samples.

Results

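PRDM1, NANOS3, DND1, KIT and PDPN, 5 genes that mark primordial germ cells, were followed through human extra-embryoids (hEEs). They were taken by symbol, and all 5 were found among the 36601 genes of both single-cell RNA-seq libraries. hEEs were made from ESI017, an established human embryonic stem cell line, grown in hEP (expanded potential) medium on mouse feeder cells. The cells were depleted of feeders and aggregated in microwells in SDM (spontaneous differentiation medium), at first with a ROCK inhibitor. The study replaced SDM by mIVC2 medium before day 4, so both groups were collected from mIVC2. The cells were wild type and no further treatment separated the groups. The groups were collected at day 4 (D4) and day 6 (D6) in vitro. Each day is also its own library, so a difference between days cannot be told apart from a difference between libraries. The paper describes a strong separation of the days, proposes possible experimental variation and integrates the data to correct for it. No such correction was applied to the counts used here. Structures with an inner and an outer compartment were picked. Per the paper, structures from independent cultures, of different clones and passages, were pooled within each day. The pool gave 1 droplet 3′ library per day. Cells of 1 day are therefore not replicates, and no difference between days or cell groups below carries a test. Every 95% interval given is exact (Poisson for a level, binomial for a share, conditional binomial for a ratio) and covers counting error within these 2 libraries only.

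Primordial germ cells are the founders of sperm and egg, and in the human they are specified around the time of gastrulation from posterior epiblast or nascent amnion in response to BMP and WNT signalling. SOX17 and TFAP2C act together with PRDM1 (BLIMP1), a zinc finger repressor, to start and protect the germ cell programme. NANOS3 and DND1 are RNA-binding proteins that keep germ cells alive, the receptor tyrosine kinase KIT carries the survival and migration signal of its ligand KITLG, and PDPN (podoplanin) is a surface glycoprotein by which human germ cells are isolated. None of SOX17, PRDM1, KIT and PDPN is exclusive to germ cells: SOX17 and PRDM1 also belong to the endoderm lineages, of which the hypoblast is one, so it is their presence with TFAP2C and NANOS3 in 1 cell that marks a germ cell.

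Of 10943 and 11483 deposited cells at D4 and D6, 9151 (83.6%) and 10097 (87.9%) were kept between a lower and an upper limit of UMIs (unique molecular identifiers) and with at most 10% mitochondrial UMIs, at median depths of 12717 and 12960 UMIs. The embryonic gate (at least 5 POU5F1, at least 1 SOX2 and at most 2 FN1 UMIs) held 3716 and 5054 cells, and its cells with at least 2 TFAP2A UMIs, an amnion and surface ectoderm factor, numbered 81 and 350. The hypoblast gate (at least 3 FN1, no SOX2 and at most 5 POU5F1 UMIs) held 4061 and 3567 cells, and 1374 and 1476 cells fell in neither gate. All 6 embryonic markers were lower in the hypoblast gate on both days. Of 8 hypoblast markers, 7 at D4 and 8 at D6 were higher there. SOX2, POU5F1 and FN1 enter these counts through the gates themselves. Over all genes measured, 14.0% were higher and 14.5% lower at D4, and 13.9% and 19.3% at D6. Lists of other cell types were partly higher in the hypoblast gate too. They include 4 of 5 primitive streak markers on both days, and 3 of 4 measured mesoderm markers at D4 and 4 of 4 at D6. Of 7 amnion markers, 5 were higher and 1 lower at D4, and 3 and 3 at D6. How far cells of other types entered this gate was not tested. Both libraries shared 40 cell barcodes among the deposited cells and 27 among the kept cells.

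The genes lie on GRCh38.p14 at chr1:13583757-13617957 (PDPN), chr4:54657957-54740715 (KIT), chr5:140670794-140673576 (DND1), chr6:105992690-106109938 (PRDM1) and chr19:13862036-13880757 (NANOS3). DND1 overlaps WDR55, and NANOS3 spans the microRNA genes MIR181C and MIR181D. DND1 also has the annotated pseudogenes DND1P1 and DND1P2 on chromosome 17. Their likeness to DND1, and any split of its reads with them, was not tested.

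Because TFAP2A and TFAP2C are AP-2 factors and define the cells compared here, the RefSeq promoter windows of the 5 genes (250 bases before to 50 bases after each annotated start, 10 windows in all) were searched for the AP-2 letters GCCNNNGGC, which read the same on both strands. The letters were in 4 windows, 2 of NANOS3 and 2 of PRDM1, and in no window of PDPN, DND1 or KIT. Among all 35116 RefSeq promoter windows of the same length, 23.2% held the letters. The 4 windows are printed in 5′ to 3′ direction, all on the plus strand of GRCh38.p14, with the matched letters in capitals.
NANOS3, chr19:13861786-13862085, plus strand: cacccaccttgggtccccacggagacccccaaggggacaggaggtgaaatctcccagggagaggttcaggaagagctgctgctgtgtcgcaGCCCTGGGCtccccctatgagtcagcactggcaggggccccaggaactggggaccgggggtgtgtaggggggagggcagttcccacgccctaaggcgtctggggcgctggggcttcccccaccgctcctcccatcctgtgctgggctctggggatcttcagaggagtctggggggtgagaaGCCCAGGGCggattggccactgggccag
NANOS3, chr19:13876884-13877183, plus strand: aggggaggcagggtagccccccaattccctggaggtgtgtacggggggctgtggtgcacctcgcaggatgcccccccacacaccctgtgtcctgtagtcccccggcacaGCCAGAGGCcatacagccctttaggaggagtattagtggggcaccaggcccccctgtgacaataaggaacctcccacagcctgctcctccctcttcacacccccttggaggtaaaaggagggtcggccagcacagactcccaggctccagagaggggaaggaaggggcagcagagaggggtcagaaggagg
PRDM1, chr6:106086086-106086385, plus strand: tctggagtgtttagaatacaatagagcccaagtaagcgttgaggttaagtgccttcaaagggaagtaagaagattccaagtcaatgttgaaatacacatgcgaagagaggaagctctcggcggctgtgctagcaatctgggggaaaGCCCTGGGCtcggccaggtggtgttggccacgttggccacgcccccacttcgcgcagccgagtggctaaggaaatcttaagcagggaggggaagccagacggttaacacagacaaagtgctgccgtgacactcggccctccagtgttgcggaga
PRDM1, chr6:106098691-106098990, plus strand: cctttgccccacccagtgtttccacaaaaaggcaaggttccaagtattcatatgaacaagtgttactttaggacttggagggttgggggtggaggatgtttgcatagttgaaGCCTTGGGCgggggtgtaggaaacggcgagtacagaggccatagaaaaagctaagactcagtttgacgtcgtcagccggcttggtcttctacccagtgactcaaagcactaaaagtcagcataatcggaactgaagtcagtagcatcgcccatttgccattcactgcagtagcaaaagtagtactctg

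The first letter of the match lay 159 bases before the start in the upstream NANOS3 window, which held a further match just after its start, and 141 bases before it in the downstream one. In PRDM1, where both windows lie within the span of the gene at internal starts, the matches lay 104 and 138 bases before the start. The SOX core letters ACAAT, searched on both strands, were in 3 of the 10 windows, 1 each of NANOS3, PRDM1 and PDPN, against 27.4% of all windows, and no AP-2 match overlapped an ACAAT match. A match is only a description of the letters. Binding was not measured.

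The levels of the 5 genes are given as counts scaled to a total of 1000000 UMIs in a gate (CPM), because the gates differ in depth. In the embryonic gate the order of levels on both days was PDPN, KIT, PRDM1, DND1 and NANOS3. The intervals of PRDM1 and DND1 overlapped at D6, and no other neighbours in the order did on either day. Levels of different genes in 3′ UMI data are not divided by length, as each molecule is counted once at its end.

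**Figure D1:**
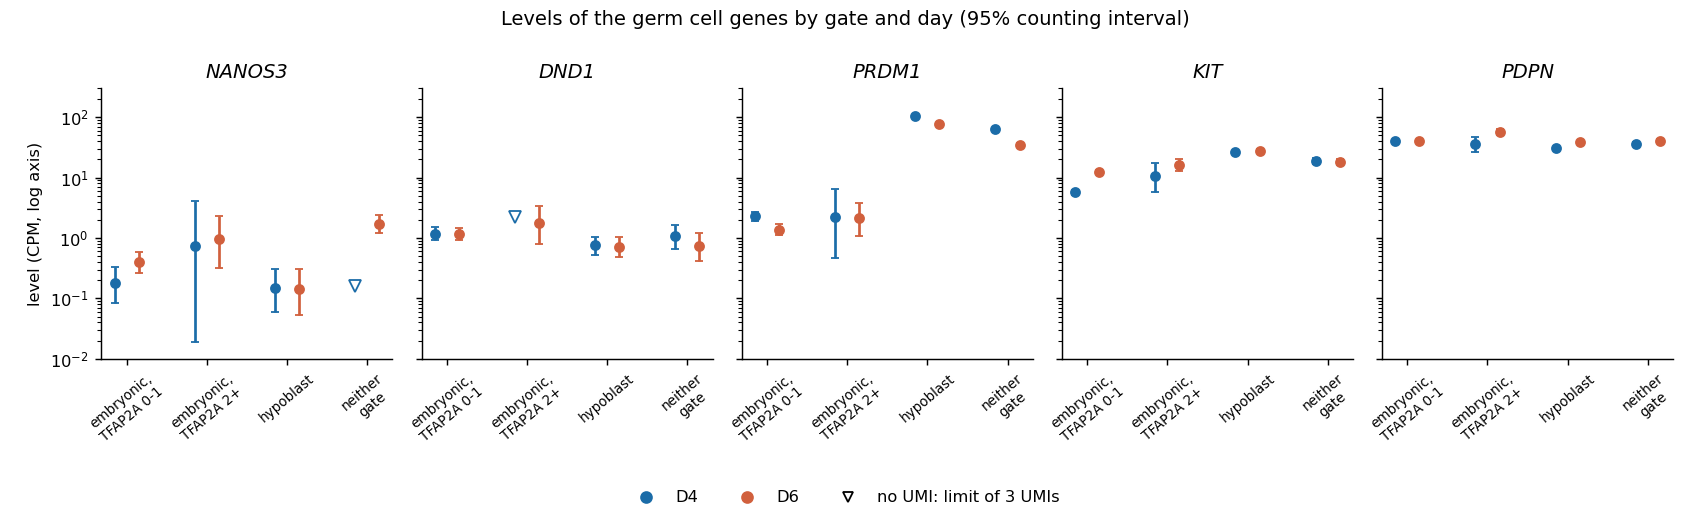
Levels of the 5 germ cell genes in CPM (log axis) in the TFAP2A-low and TFAP2A-high cells of the embryonic gate, the hypoblast gate and the kept cells in neither gate, at D4 and D6. Points are summed UMIs of 1 library per day, bars are exact 95% Poisson intervals and open triangles mark the limit of 3 UMIs where none was found. PRDM1 is highest in the hypoblast gate (103 and 76.0), and NANOS3 has its highest level in neither gate at D6 (1.74).

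PRDM1 was found mainly in the hypoblast gate. The hypoblast gate held 103 CPM on D4 (100.5 to 106) and 76.0 on D6 (73.3 to 78.6), and 63.9% and 52.1% of its cells had a UMI. In the embryonic gate it was 2.30 CPM at D4 (1.93 to 2.73, 133 UMIs in 2.88% of cells) and 1.43 at D6 (1.17 to 1.73, 107 UMIs in 1.82% of cells). The hypoblast level was thus higher by 5.49 on the log2 scale at D4 (5.24 to 5.75) and by 5.73 at D6 (5.45 to 6.02). Single hypoblast cells carried up to 11 PRDM1 UMIs at D4 and 13 at D6, and 14.5% and 8.77% of them carried 3 or more, against at most 6 and 4 UMIs in a cell of the embryonic gate.

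The embryonic PRDM1 level equalled 2.23% of the hypoblast level at D4 and 1.88% at D6. The same share was taken for 11 genes of hypoblast and visceral endoderm, 7 from the hypoblast marker list without FN1, which defines the gate, and 4 added beside them (TTR, AFP, APOE and APOC1). It varied widely among them. At D4, 7 of the 11 had shares from 1.28% (the apolipoprotein APOA1) to 2.60% (the transcription factor FOXA2), while APOC1 had 10.9%, APOE 17.2%, PDGFRA 70.2% and AFP 1159%. At D6 the same 7 had shares from 0.392% (TTR) to 1.19% (GATA4), all below PRDM1, and the other 4 had shares from 5.76% (APOC1) to 12.7% (APOE). KIT was at 22.0% and 45.5%, SOX17 at 12.1% and 13.5% and PDPN at 131% and 105%, within the spread of the 11 genes at D4 and above it at D6. The part of RNA carried over from other cells in the embryonic PRDM1 level was not measured.

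**Figure D2:**
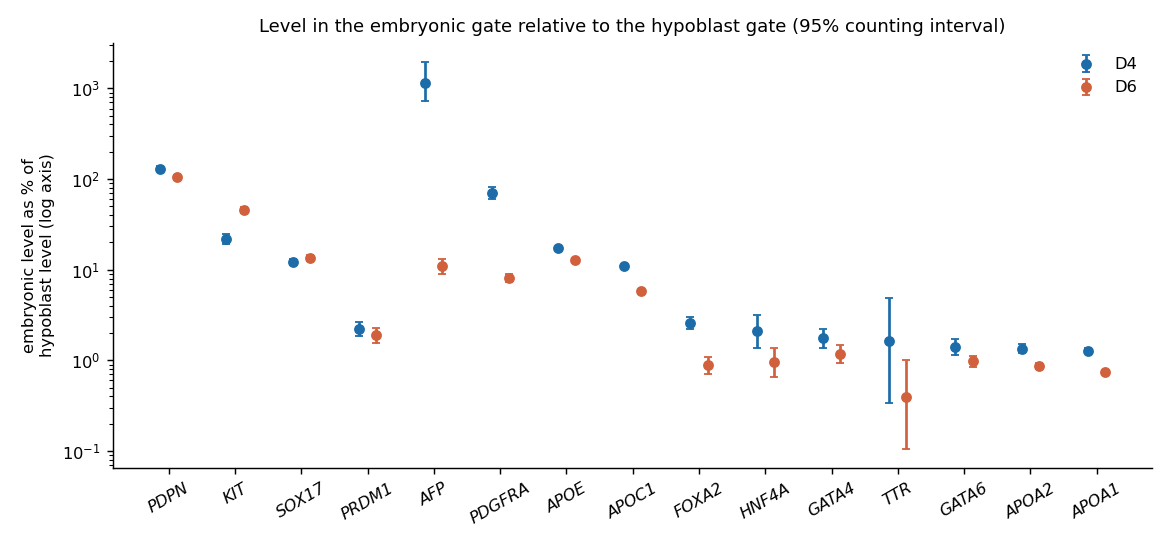
The level in the embryonic gate as a percentage of the level in the hypoblast gate (log axis) for PDPN, KIT, SOX17, PRDM1 and 11 genes of hypoblast and visceral endoderm, at D4 and D6, with 95% intervals for counting error. PRDM1, at 2.23% and 1.88%, lies near the 7 lowest of these genes, which reach 2.60% at D4 and 1.19% at D6, while APOC1, APOE, PDGFRA and AFP lie higher, between 5.76% and 1159%.

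Between D4 and D6 the PRDM1 level did not pass the 2-fold rule used here in either gate: a gene is counted as higher or lower when its level differs at least 2-fold, its interval leaves out a log2 ratio of 0 and it has at least 10 UMIs over both groups. The D6 over D4 log2 ratio was −0.44 in the hypoblast gate (−0.51 to −0.38) and −0.69 in the embryonic gate (−1.07 to −0.31). Within the hypoblast gate, the cells with at least 3 CER1 UMIs, a marker of anterior hypoblast, held 84.0 CPM of PRDM1 at D4 and 49.3 at D6, which was −0.34 (−0.47 to −0.20) and −0.64 (−1.01 to −0.30) against the other hypoblast cells. A small embryonic subset stood above the rest of its gate: cells with an ISL1 or GABRP UMI had 12.4 CPM at D4 (18 UMIs in 86 cells) and 4.11 at D6 (9 UMIs in 130 cells), log2 ratios of 2.60 (1.80 to 3.33) and 1.61 (0.44 to 2.59). Both genes are on the amnion list, but TFAP2A in these cells had a log2 ratio of −1.93 at D4 (−4.22 to −0.38) and 1.30 at D6 (1.003 to 1.59), so the name amnion is not used for them.

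NANOS3, the RNA-binding protein whose expression follows specification, was the rarest of the 5. All kept cells together held 18 NANOS3 UMIs at D4 and 74 at D6. In the embryonic gate 11 UMIs gave 0.190 CPM at D4 (0.0950 to 0.341), and 33 UMIs in 32 cells gave 0.441 at D6 (0.304 to 0.619). The hypoblast gate gave 0.146 at D4 (0.0588 to 0.302, 7 UMIs) and 0.144 at D6 (0.0527 to 0.313, 6 UMIs). The share of cells with a UMI was 0.296% and 0.633% in the embryonic gate (median depths 15157.5 and 14225.5 UMIs) and 0.172% and 0.168% in the hypoblast gate (11012 and 10902 UMIs). At D4 the intervals of the embryonic and the hypoblast gate overlap.

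The embryonic NANOS3 level at D6 over D4 had a log2 ratio of 1.21 (0.19 to 2.35), past the 2-fold rule. It is a ratio of 33 to 11 UMIs, and under stricter gates it was 0.34 (−1.66 to 2.21). With each cell thinned to the UMI count of the shallowest kept cells, the share of embryonic cells with a NANOS3 UMI was 0.0538% at D4 and 0.178% at D6, against 0.0739% and 0.0280% in the hypoblast gate. The hypoblast over embryonic log2 ratio was −0.38 at D4 (−1.98 to 1.12) and −1.62 at D6 (−3.16 to −0.35). The D6 difference no longer passed the rule with stricter gates (−0.92, −3.25 to 1.30) or with thinned cells (−2.67, −8.12 to 0.18).

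DND1, which acts with NANOS proteins on target RNAs, was low in both gates. It had 1.16 CPM in the embryonic gate at D4 (0.898 to 1.47) and 1.20 at D6 (0.967 to 1.48), and 0.753 (0.527 to 1.04) and 0.718 (0.485 to 1.03) in the hypoblast gate. The D6 over D4 log2 ratio in the embryonic gate was 0.05 (−0.42 to 0.53), and the hypoblast over embryonic ratio was −0.62 (−1.25 to −0.02) and −0.74 (−1.39 to −0.13), neither past 2-fold.

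KIT was higher at D6 than at D4 in the embryonic gate. It went from 5.80 CPM at D4 (5.19 to 6.45, a UMI in 8.48% of cells) to 12.8 at D6 (11.97 to 13.6, in 16.3%), a log2 ratio of 1.14 (0.96 to 1.32). The thinned shares were 1.72% and 3.94%, and over all alternatives of processing the ratio stayed between 1.05 and 1.23. In the hypoblast gate KIT was higher, at 26.4 (24.9 to 27.9) and 28.03 (26.5 to 29.7), with a D6 over D4 ratio of 0.09 (−0.03 to 0.20). The hypoblast over embryonic ratio was 2.19 at D4 (2.01 to 2.36) and 1.14 at D6 (1.01 to 1.26).

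Markers of other cell types moved in the embryonic gate between the days as well. The summed level of 7 amnion markers was 25.5 CPM on D4 and 46.7 on D6 (4 of 7 past the rule as higher, among them TFAP2A), and that of 8 hypoblast markers was 57.6 and 132, with APOA1 higher and FOXA2 lower. The summed level of 4 anterior hypoblast markers was 167 and 27.2, with 3 of 4 lower. Over all genes measured in that gate, 3.12% were higher at D6 and 1.27% lower. No marker of these lists was at 0 in the embryonic gate. Whether these had a part in the KIT or NANOS3 ratio was not tested.

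KITLG, the ligand of KIT, was mainly in the hypoblast gate. Its level was 54.7 CPM in the hypoblast gate at D4 (52.6 to 56.9) and 105 at D6 (102 to 108), against 4.15 (3.64 to 4.71) and 2.99 (2.61 to 3.41) in the embryonic gate. The D6 over D4 log2 ratio in the hypoblast gate was 0.94 (0.87 to 1.01), short of 2-fold, and the hypoblast over embryonic ratio was 3.72 (3.53 to 3.92) and 5.13 (4.94 to 5.33). Receptor and ligand were thus both higher in the hypoblast gate.

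PDPN was the member detected in most embryonic cells. It stood at 39.7 CPM in the embryonic gate at D4 (38.1 to 41.4) and 41.0 at D6 (39.6 to 42.5), with a UMI in 43.6% and 42.9% of cells. The hypoblast gate had 30.4 (28.8 to 31.96) and 38.9 (37.0 to 40.8), with D6 over D4 log2 ratios of 0.05 (−0.03 to 0.13) in the embryonic and 0.36 (0.25 to 0.46) in the hypoblast gate. At D6 the hypoblast over embryonic ratio of −0.08 (−0.16 to 0.01) became 0.10 (0.01 to 0.18) when scaled by the median ratio of all genes, which was −0.17 in that comparison, so no direction is given for it.

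PDPN had its lowest levels in small subsets. CER1-high hypoblast cells had 17.9 CPM at D4 and 18.1 at D6, −0.84 (−1.14 to −0.55) and −1.13 (−1.76 to −0.56) on the log2 scale against the other hypoblast cells. At D6, 59 of the cells in neither gate had at least 3 UMIs of HAND1, a factor of amnion and extra-embryonic mesoderm. PDPN in these 59 cells was 6.50 CPM (2.11 to 15.2), a ratio of −2.66 (−4.28 to −1.43) to the embryonic gate. PRDM1 in the same cells was 15.6 CPM against 1.43, a ratio of 3.45 (2.45 to 4.31) from 12 UMIs. NANOS3 was 3.90 against 0.441, a ratio of 3.15 (0.80 to 4.82) from 3 UMIs. The intervals of KIT and DND1 included 0. Cells with HAND1 inside the embryonic or hypoblast gate were not part of this group. CLEC1B, the receptor of PDPN on platelets, had 1 UMI in the hypoblast gate at D4 and none in the other cells.

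**Figure D3:**
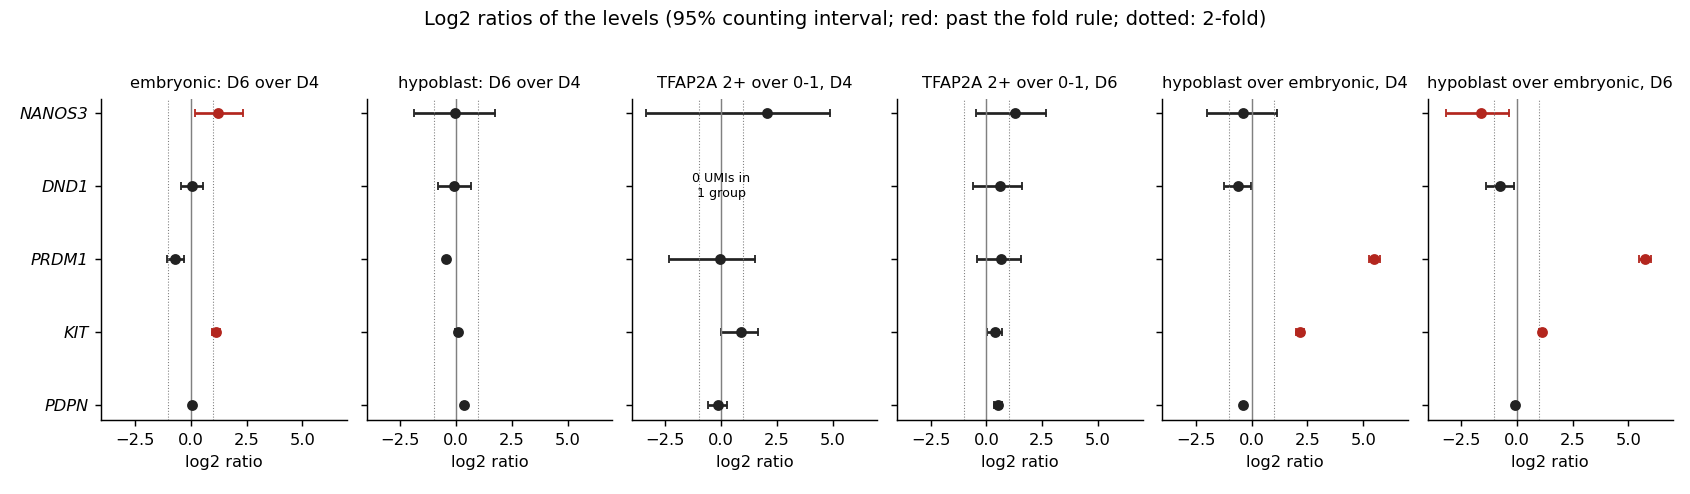
Log2 ratios of the levels of the 5 genes for D6 over D4 in each gate, TFAP2A-high over TFAP2A-low embryonic cells, and hypoblast over embryonic gate, with exact 95% intervals for counting error; dotted lines mark 2-fold and red points pass the fold rule. KIT and NANOS3 pass 2-fold for D6 over D4 in the embryonic gate, and PRDM1 and KIT for hypoblast over embryonic on both days.

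Counted over the members, 2 of 5 were higher at D6 in the embryonic gate (KIT and NANOS3) and none was lower, against 3.12% and 1.27% of the 20639 genes measured there, or 4.39% in either direction. In the hypoblast gate none of the 5 passed the rule between the days, against 4.94% of genes higher, 3.94% lower and 8.87% in either direction. Between gates, 2 of 5 were higher in the hypoblast gate at D4 (PRDM1 and KIT) and none lower, where 14.0% of genes were higher and 14.5% lower (28.5% in all). At D6 the same 2 were higher and NANOS3 was lower, where 13.9% of genes were higher and 19.3% lower (33.2% in all).

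Early amnion is one proposed source of germ cells, so the TFAP2A-high cells of the embryonic gate were set against its TFAP2A-low cells. All of these cells have a SOX2 UMI by the gate, so cells without SOX2 were not compared. No member passed the 2-fold rule on either day, while 1.18% of genes were higher and 0.729% lower at D4 (1.91% in all), and 1.64% and 1.13% at D6 (2.77% in all). NANOS3 in the TFAP2A-high cells was 1 UMI at D4 and 5 UMIs at D6 (0.974 CPM, 0.316 to 2.27), against 0.402 (0.267 to 0.581) in the TFAP2A-low cells at D6, a log2 ratio of 1.28 (−0.45 to 2.67). PRDM1 was 2.24 at D4 (3 UMIs) and 2.14 at D6 (11 UMIs), with ratios of −0.04 and 0.64 (−0.41 to 1.54). The intervals of both genes include 0 and reach past 2-fold, so neither a 2-fold difference nor its absence can be read from them.

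PDPN and KIT, which were detected in more cells, could be placed more closely. PDPN was 35.8 in TFAP2A-high cells at D4 (26.4 to 47.5) and 56.5 at D6 (50.2 to 63.4, a UMI in 53.4% of cells), against 39.8 and 39.9 in the TFAP2A-low cells, ratios of −0.15 (−0.60 to 0.26) and 0.50 (0.32 to 0.68). KIT was 10.4 (5.71 to 17.5) and 16.2 (12.9 to 20.04), with ratios of 0.88 (−0.01 to 1.65) and 0.37 (0.03 to 0.70). DND1 had no UMI in the 81 cells at D4, which allows up to 2.24 CPM, and 1.75 at D6 (9 UMIs).

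TFAP2C was past the rule in the TFAP2A-high cells on both days, at 20.1 CPM on D4 (log2 ratio 1.39, 0.77 to 1.95) and 32.3 CPM on D6 (1.98, 1.72 to 2.24). SOX17 had a ratio of −0.56 at D6 (−1.002 to −0.14), short of 2-fold. Of the 6 amnion markers other than TFAP2A, 5 were higher in these cells at D6, as were 1.64% of all genes. These 6 markers had a summed level of 108 CPM against 26.7 in the whole embryonic gate and 338 in the hypoblast gate. Their part in the TFAP2C and PDPN levels was not tested.

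Cells with a UMI of both SOX17 and TFAP2C were counted next, as a description of 1 library per day. The embryonic gate had 51 such cells at D4 (1.37%, median depth 16049 UMIs) and 105 at D6 (2.08%, 15675 UMIs). SOX17 was in 13.2% of the 386 D4 cells with TFAP2C (9.998% to 17.004%) and 15.2% of those without, and in 17.3% of the 607 D6 cells with it (14.4% to 20.5%) and 17.9% of those without. NANOS3 was found in 0 of 51, which allows a share of up to 5.88%, and in 1 of 105 (0.952%, 0.0241% to 5.19%). PRDM1 was found in 3 of 51 (5.88%, 1.23% to 16.2%) and 2 of 105 (1.90%, 0.232% to 6.71%). The cells with SOX17, TFAP2C and at least one of NANOS3 and PRDM1 were therefore 3 at each day, of 3716 and 5054 cells. The embryonic gate requires a SOX2 UMI, so cells without SOX2 could not enter this count. Among those left out is the cell with the most NANOS3 UMIs, described below. Human germ cells characteristically lack SOX2, so a low count here was in part set in advance by the gate. The count therefore sets no limit on germ cells without SOX2.

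In embryonic cells with neither SOX17 nor TFAP2C (2823 and 3651 cells), NANOS3 was detected in 0.213% and 0.575%, and PRDM1 in 2.23% and 1.62%. These shares lie inside the intervals of the co-detected cells on both days. PDPN was in 43.1% of the co-detected cells at D4 and 53.3% at D6 (43.3% to 63.1%), against 43.6% and 40.9% of the cells with neither factor. KIT was in 11.8% and 21.9% (14.4% to 31.03%), against 8.50% and 15.6%. DND1 was in 0 of 51 and 4 of 105 (3.81%), against 1.84% and 1.59%.

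**Figure D4:**
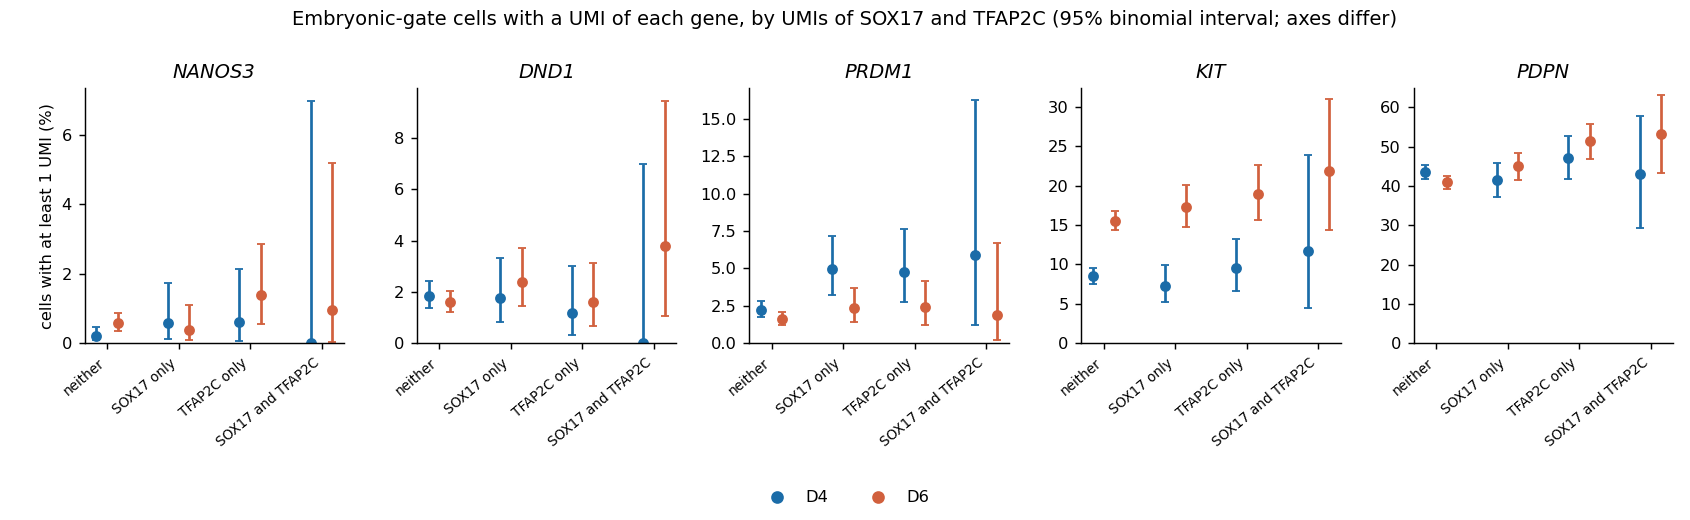
Share of embryonic-gate cells with a UMI of each member, by whether the cell had UMIs of neither SOX17 nor TFAP2C, of 1 of them or of both, at D4 and D6, with exact 95% binomial intervals (each panel has its own axis). NANOS3 was in 0 of 51 and 1 of 105 cells with both factors, and its share in cells with neither was 0.213% and 0.575%.

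Cells with TFAP2C but no SOX17 UMI had NANOS3 in 0.597% at D4 and 1.39% at D6 (0.562% to 2.85%, 502 cells). Among the TFAP2A-high cells at D6, NANOS3 was in 4 of 108 cells with TFAP2C and no SOX17 (3.70%, 1.02% to 9.21%) and in 0 of 229 cells without TFAP2C, which allows a share of up to 1.31%. This did not hold in the other counts: at D4 it was in 0 of 23 TFAP2A-high cells with TFAP2C and 1 of 58 without, and after thinning at D6 in 0 of 40 with and 1 of 310 without. PDPN was in 64.8% of those 108 cells and in 47.7% of TFAP2A-high cells with neither factor. Only 3 TFAP2A-high cells at D4 and 13 at D6 had both SOX17 and TFAP2C, of which 0 and 1 had NANOS3 or PRDM1. With every cell thinned to the same depth, 3 and 5 embryonic cells kept both factors and none of them had NANOS3 or PRDM1.

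The number of members found per cell was low. Of the embryonic cells, 49.3% had none of the 5 at D4 and 46.7% at D6, 44.7% and 43.7% had 1, 5.65% and 9.24% had 2, and 13 and 21 cells had 3. No embryonic cell had 4 or 5, and no kept cell on either day had all 5. PRDM1 was in 0 of the 11 embryonic cells with NANOS3 at D4 and 0 of 32 at D6, and in 2.89% and 1.83% of the embryonic cells without NANOS3, so few shared cells could be seen at this depth. In embryonic cells with PRDM1, KIT was detected in 17.8% at D4 and 23.9% at D6, against 8.20% and 16.2% of cells without it, and the cells with PRDM1 were deeper (median 18206 against 15097 UMIs and 16002 against 14220.5).

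Cells with both SOX17 and TFAP2C were also counted outside the embryonic gate. The hypoblast gate had 8 and 4 cells with SOX17 and TFAP2C, as TFAP2C there was at 0.209 and 0.311 CPM, and 4 and 3 of them had NANOS3 or PRDM1. Among the cells in neither gate there were 27 and 45, of which 17 (63.0%) and 23 (51.1%) had NANOS3 or PRDM1, but PRDM1 itself was in 48.1% and 29.5% of all those cells. NANOS3 was in 0 of the 27 and 3 of the 45, and in 0 of all 1374 and 17 of all 1476 cells in neither gate.

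NANOS3 was highest in cells that the embryonic gate left out. In the cells in neither gate it was not detected at D4, which allows up to 0.161 CPM, and at D6 it was 1.74 (1.21 to 2.42), from 35 UMIs in 17 cells. Of these UMIs, 9 and 7 were in single cells, which the interval does not allow for. Of those 17 cells, 14 had no SOX2 UMI. The embryonic gate takes many cells with SOX2 out of this group, and the share without SOX2 among all its cells was not counted. The cells with at least 5 POU5F1, no SOX2 and at most 2 FN1 UMIs, a group chosen after these values were seen, numbered 214 at D4 and 321 at D6 and held 0 and 5.86 CPM of NANOS3 (3.67 to 8.87, 22 UMIs in 7 cells). As the group was picked for its NANOS3, this is a description.

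These 22 UMIs were concentrated in few cells. Every NANOS3-positive cell at D4 had 1 UMI (18 cells), whereas at D6 there were 49 cells with 1 UMI, 3 with 2, and 1 each with 3, 7 and 9. Of the 6 cells with at least 2 NANOS3 UMIs, 5 had at least 5 POU5F1 and no SOX2 UMI, against 8 of the 49 single-UMI cells and 3.99% of all kept D6 cells. Without the cell with 9 UMIs the SOX2-negative level was 3.47 CPM, and without the cell with 7 as well it was 1.61, a log2 ratio to the embryonic gate of 1.87 (0.32 to 3.14) in place of 3.73 (2.88 to 4.55).

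**Figure D5:**
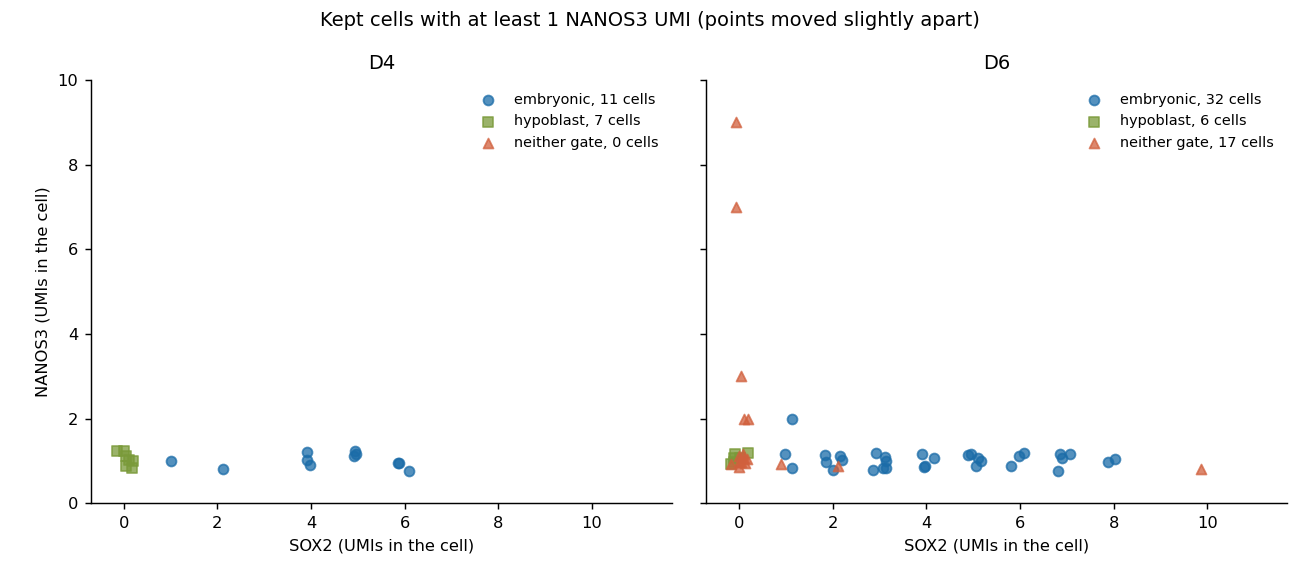
Cells with NANOS3 at D4 and D6 by their SOX2 (x axis) and NANOS3 (y axis) UMI counts, each point 1 cell, moved slightly apart, with symbols for the embryonic gate, the hypoblast gate and neither gate. All 18 D4 cells had 1 NANOS3 UMI, and 5 of the 6 D6 cells with 2 or more had no SOX2 UMI.

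The cell with 9 NANOS3 UMIs had 4 of the 5 members, as did 3 hypoblast-gate cells and 3 cells in neither gate at D4 and 1 further cell in neither gate at D6. Of its 13481 UMIs, 3 were PRDM1, 10 PDPN, 1 KIT, 1 SOX17, 7 TFAP2C and 41 POU5F1, and it had no DND1, SOX2, NANOG or TFAP2A UMI and 1 each of FN1 and APOA1. It was the only kept cell on either day with NANOS3, PRDM1, SOX17 and TFAP2C together. The cell with 7 NANOS3 UMIs had 14665 UMIs in all, with 1 PRDM1, 6 PDPN, 34 POU5F1 and 3 NANOG. It had no SOX17, TFAP2C, KIT or SOX2, and 87 UMIs of KRT18, an epithelial keratin, against 11 in the cell with 9. The cells with 3 or 2 NANOS3 UMIs had 15 to 64 UMIs of KRT18 and 4 to 18 of HPGD. The cell with 7 had 7 HPGD UMIs, and the cell with 9 had none. KRT8 had 36 UMIs in the cell with 7 and 9 in the cell with 9. Both cells had 4 UMIs of NRK and 5 of PLPP1, and VAMP8 had 6 in the cell with 7 and 7 in the cell with 9. Of other germ cell specification genes, SOX15 had 2 UMIs in the cell with 9 and 1 in the cell with 7. KLF4 and TFCP2L1 had 1 each in the cell with 9 and none in the cell with 7. Neither cell had a UMI of PRDM14 or of the later germ cell genes DDX4, DAZL or TCL1A.

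The SOX2-negative cells were a mixed group, and markers of other cell types were also higher in them. At D6 they held 18.4 CPM of HAND1 against 1.43 in the embryonic gate, 11.4 against 0.615 of TBXT, a primitive streak factor, 19.4 against 4.89 of GATA3 and 175 against 89.6 of APOA1. TFAP2C was 20.2 against 9.84, PRDM1 4.79 against 1.43, and PDPN 45.3 against 41.0. SOX17 was 13.0 against 13.7 and KIT 12.5 against 12.8. At D4, when the group held no NANOS3 UMI, PRDM1 was 27.2 against 2.30, SOX17 34.2 against 11.3 and KIT 16.3 against 5.80. TFAP2C at D4 was 7.32 against 7.96 and PDPN 38.6 against 39.7. Summed markers at D4 were 405 CPM in the group against 167 for 4 anterior hypoblast markers and 229 against 57.6 for 8 hypoblast markers. For 5 primitive streak markers they were 80.1 against 7.98, and for 6 embryonic markers 1489 against 1973. The part of any of these markers in the levels of NANOS3, PRDM1, SOX17 or KIT was not tested.

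Beyond the 5 members, 15 regulators of germ cells and of the states around them were followed. In the embryonic gate 2 of 15 were higher at D6, TFAP2A and TFCP2L1, a naive pluripotency factor (1.18 CPM at D4 and 2.85 at D6), and none was lower, against 3.12% of all genes higher and 1.27% lower. Their median log2 ratio was 0.15, beside 0.08 over all genes measured. In the TFAP2A-high cells at D6, 5 were higher (1.64% of all genes), among them TFAP2A by rule, TFAP2C, GATA2 and GATA3, the last 2 with log2 ratios of 2.78 and 2.75. PRDM14, a regulator of germ cells and of pluripotency, was lower there, at 9.15 against 18.9 (1.13% of all genes). Against the hypoblast gate, 3 of 15 were higher in hypoblast (SOX17, EOMES and GATA3) and 6 lower on both days, POU5F1 by rule, against 14.0% and 14.5% of all genes at D4 and 13.9% and 19.3% at D6, their median log2 ratios being −0.62 on D4 and −0.72 on D6, beside −0.05 and −0.17 over all genes.

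Of 7 further surface genes of germ cells, none passed the rule between the days in the embryonic gate (median log2 ratio −0.18, beside 0.08 over all genes). FGFR3 was higher in TFAP2A-high cells at D6 (24.2 against 9.38 CPM), as were 1.64% of all genes. Of 14 later germ cell genes, 9 had enough UMIs to be measured between the days in the embryonic gate. Their median log2 ratio was 0.46, beside 0.08 over all genes. RHOXF1 (0.208 at D4 and 0.494 at D6) and NANOS2 (0.0173 and 0.134, from 1 and 10 UMIs) were higher at D6. DAZL (0.346 and 0.107) was lower, and all 3 were at levels of less than 1 CPM. Over all genes in that gate, 3.12% were higher and 1.27% lower. DDX4, the helicase that marks later germ cells, had 4 UMIs in the embryonic gate at D4 and 0 at D6. DPPA3 was higher in the hypoblast gate at D6, at 44.3 against 6.73, a log2 ratio of 2.72. Of the 14 partners, which include KITLG and CLEC1B, 13 were measured and none passed the rule between the days in either gate. Over all genes, 4.39% passed it in the embryonic gate and 8.87% in the hypoblast gate.

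The pattern of each member over 6 groups (embryonic TFAP2A-high, embryonic TFAP2A-low and hypoblast cells at each day) was compared with that of 16259 genes by the root mean square difference of centred log2(CPM + 1). PRDM1 was nearest to PLCXD3 (0.17), BMPER (0.23) and LINC00261 (0.25), and KIT to TET2 (0.21), ASS1 (0.23) and KANSL1L (0.23). PDPN was nearest to SPINK5 (0.05), TBCCD1 (0.06) and MINDY1 (0.07), and DND1 to TAS2R30 (0.04), UVRAG (0.05) and ZNF442 (0.06). TAS2R30 and ZNF442, like DND1, had no UMI in the TFAP2A-high cells at D4. NANOS3, with 57 UMIs over these groups, was under the minimum of 100 and was not compared. The groups come from 2 libraries and share their depth and free RNA, so the values describe likeness only.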

How the data were processed

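Single-cell RNA-seq of D4 and D6 hEEs (1 library each) was analysed from the deposited counts of UMIs per gene and cell, made by the authors with cellranger 6.0.1 per the file headers and the hg38 genome per the labels; the submitters' processing notes also name Seurat 4.0.1 and R 4.0.3. The 7 other samples were not analysed here. Counts were used as deposited. Cells with 3430 to 27500 UMIs and at most 10% mitochondrial UMIs were kept and gated on POU5F1, SOX2, FN1 and TFAP2A UMIs. No doublet caller was run: the UMI maximum, the exclusive gates, a maximum of 20000 UMIs and stricter gates stood in for one. UMIs were summed per gate and day. With 1 library per day no test is possible, so exact 95% intervals for counting error were computed and a gene was counted as higher or lower at 2-fold or more, with the interval clear of 0 and at least 10 UMIs. A count of 0 was bounded by 3 counts. Shares were also computed after thinning every cell to 3430 UMIs, which left out no kept cell. The 5 genes were named with their values for the days, the embryonic and hypoblast gates and the TFAP2A-high and TFAP2A-low cells. SOX17, TFAP2C and list genes that passed the rule were named in part of these comparisons. For the CER1-high, HAND1 and ISL1 or GABRP cells only some members were named. The genes and lists were chosen with earlier results of these data known. Promoter windows, gene positions and starts came from RefSeq (GRCh38.p14), where all 5 genes matched. The interval script was checked on simulated data. Python 3.11.15, numpy 2.4.6, scipy 1.17.1 and pandas 2.3.3 were used.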

Additional observations from a re-analysis of the deposited data

Results flagged for a closer look

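NANOS3 reached 1.74 CPM (counts scaled to 1000000, 1.21 to 2.42) at D6 in the kept cells that fall in neither gate. This is above its interval in the embryonic gate (0.304 to 0.619) and in the hypoblast gate (0.0527 to 0.313) on the same day. As a whole, these cells enter no comparison between gates. The SOX2-negative cells and the HAND1 cells among them were set against the embryonic gate above. The signal came from 35 UMIs in 17 cells, of which 9 and 7 UMIs were in single cells. The interval treats each UMI as independent, and the level of this group without the cells of 9 and 7 was not computed. The separation from both gates may therefore depend on the cells of 9 and 7. There was 1 library, so how often such cells arise was not measured.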

How the results depend on the processing

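No paired analysis was possible because there was 1 library per day, which also leaves no replicate to leave out. Across 11 alternative settings (cell filters, gates, thinning, scaling and denominators), 253 of 271 alternative log2 ratios of the members stayed inside the counting interval of the main value. That interval is wide for rare genes. All 51 NANOS3 and 47 DND1 values stayed inside it, also where NANOS3 no longer passed the rule, so this does not show that they are stable. Of 72 further values, mostly counts, 61 stayed close to the main value. The 72 include the alternatives chosen after seeing the data, given below. The KIT change between the days in the embryonic gate passed 2-fold in every setting in which it was computed. The count of members higher at D6 in that gate was 1 in place of 2 with thinned cells and with stricter gates, where NANOS3 no longer passed. The direction turned for these ratios under stricter gates: embryonic PRDM1 at D6 over D4 was 0.095 (−0.67 to 0.83), and KIT in TFAP2A-high over TFAP2A-low cells at D6 was −0.11 (−1.09 to 0.72). Among TFAP2A-high cells, 1 member in place of 0 passed at D6 without a cell filter (NANOS3, 1.58), and 1 at D4 with cells over 20000 UMIs left out or with stricter gates (KIT, 1.18 and 1.17). Embryonic cells with SOX17, TFAP2C and NANOS3 or PRDM1, 3 on each day, were 0 on both days after thinning. At D6 they were 1 with cells over 20000 UMIs left out and 1 with stricter gates. Without the SOX2 requirement, an alternative chosen after seeing the data, they were 6 at D4 and 4 at D6. NANOS3 in SOX2-negative over embryonic cells at D6 was 1.87 without the cells of 9 and 7 UMIs, also chosen after seeing the data. The cause of these shifts was not tested, beyond the fewer cells or UMIs that thinning, the lower UMI maximum and stricter gates leave. KIT in the hypoblast over the embryonic gate at D6 was 0.97, under 2-fold, when mitochondrial and ribosomal genes were left out of the total. Depth limits NANOS3 and DND1, for which most positive cells held 1 UMI.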
